A study of Homo sapiens with 18 samples.

Results

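The genes described here are a group of imprinted genes that includes MEST, in 6 human ovarian cancer cell lines. The group was set by name, as MEST, PEG10, SGCE, PEG3, IGF2, H19, CDKN1C, MEG3, PLAGL1 and GRB10, and it was selected on the RNA level of MEST, which was nearly lost in the line CP70. Of these 10 genes, 7 were matched by symbol among the 12853 genes of the expression table, and IGF2, CDKN1C and MEG3 were not analysed here. The values that chose the group are those of CP70 and its parent A2780, so that contrast is given below as a description. No p-value is given for it, and its counts of genes past the study's thresholds support nothing.

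Total RNA depleted of ribosomal RNA was sequenced from 18 libraries, 3 for each of 6 established lines that form 3 pairs of a platinum-sensitive and a platinum-resistant line. A2780, labelled as endometrial or ovarian cancer cells and platinum sensitive, was the parent of CP70, a derivative made resistant by drug selection in culture. PEA1 (sensitive) and PEA2 (resistant) came from the ascites of a single patient with high-grade serous ovarian cancer, before platinum and after relapse. PEO1 (sensitive) and PEO4 (resistant) share a donor as well, a different patient with the same disease who had already received platinum, and PEO4 is the line taken once the tumour no longer responded. All lines grew in the same serum-containing RPMI medium, and the labels name no drug treatment of these cultures. Each pair is thus a single sensitive and a single resistant cell population, and resistance cannot be told apart from any other difference between those populations. The labels do not say that the replicates were separate cultures, so the tests measure only the spread between libraries, which may be technical.

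Values are log2 of CPM, the counts per 1000000 reads of a library, and 1344098 to 7067336 reads per library stand behind them. A count of 3 reads corresponds to 0.452 to 2.18 CPM, and lines in which no library held more than 3 reads of a gene are described as at the floor. PAX8, a lineage factor of serous carcinoma, reached at least 379 reads in every PEA1 library and at least 438 in every PEO1 library, while MSLN was at the floor in PEA1. WT1 and MUC16 were also low in PEA1, at 7 to 11 and 0 to 5 reads, where PEO1 libraries held at least 242 and 6517. In A2780 all 4 serous markers checked (PAX8, WT1, MUC16, MSLN) were at the floor, as were 3 of the 4 in CP70. The other, MUC16, held 0 to 4 reads in the CP70 libraries.

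Genomic imprinting is the expression of a gene mainly from a single parental copy, set by DNA methylation laid down in the egg or the sperm and kept through later cell divisions. Imprinted genes lie in clusters around such methylated control regions, many of them regulate fetal and placental growth, and loss or gain of their expression is common in cancer. MEST, PEG10, SGCE, PEG3 and PLAGL1 are expressed from the paternal copy, H19 from the maternal copy, and GRB10 from either parent's copy depending on the tissue. The values here sum both copies and all transcripts of a gene, so neither the parent of origin nor the transcript start in use can be read from them.

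The sequences below are shown for MEST and H19, which lay far apart between A2780 and CP70 in opposite directions. In the table of RefSeq promoters used here (GRCh38.p14), 4 of the 7 genes were matched, MEST, H19, PLAGL1 and GRB10. MEST has 5 listed starts, of which an upstream and a downstream one are shown as the 250 bases before the start, 5′ to 3′ with CG pairs in capitals. The upstream window at chr7:130485925-130486174 on the plus strand held 9 CG pairs, and the downstream window at chr7:130491808-130492057 held 16. In order along the chromosome the 5 MEST windows held 9, 20, 11, 16 and 20. The windows shown therefore do not set upstream starts apart from downstream ones. The H19 window at chr11:2001267-2001516 on the minus strand held 4. Across all 35116 promoters of that table the median was 11 CG pairs in a window of this length, and 54.1%, 41% and 70.7% of promoters held at least 9, 16 and 4.
MEST upstream start: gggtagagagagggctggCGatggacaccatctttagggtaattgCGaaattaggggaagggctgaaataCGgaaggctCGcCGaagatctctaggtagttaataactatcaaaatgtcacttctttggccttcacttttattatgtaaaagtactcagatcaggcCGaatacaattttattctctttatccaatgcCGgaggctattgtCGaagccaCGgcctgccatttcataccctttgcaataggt
MEST downstream start: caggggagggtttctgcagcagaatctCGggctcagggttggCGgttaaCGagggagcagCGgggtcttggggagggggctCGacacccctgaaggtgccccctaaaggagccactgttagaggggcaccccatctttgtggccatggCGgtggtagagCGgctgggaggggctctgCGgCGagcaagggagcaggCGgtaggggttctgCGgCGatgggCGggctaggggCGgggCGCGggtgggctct
H19 start: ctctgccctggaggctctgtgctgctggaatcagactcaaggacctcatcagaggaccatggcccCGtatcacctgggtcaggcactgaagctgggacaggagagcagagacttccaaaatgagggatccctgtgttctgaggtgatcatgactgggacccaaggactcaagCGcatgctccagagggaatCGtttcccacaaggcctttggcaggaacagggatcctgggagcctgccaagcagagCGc

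Each of these genes also carries a microRNA gene inside its span, miR-335 in MEST and miR-675 in H19. The microRNAs themselves were not measured here. Their mature 5p sequences are shown because they share the transcript of the gene described, with the seed (bases 2 to 8) in capitals, and their seeds differ.
hsa-miR-335-5p: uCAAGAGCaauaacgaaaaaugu
hsa-miR-675-5p: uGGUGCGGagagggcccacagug

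MEST (ENSG00000106484; GRCh37 chr7:130126012-130146306, plus strand) encodes a membrane protein of the alpha/beta-hydrolase fold family and is a marker of fetal growth and of adipocyte enlargement. In A2780 its log2 CPM was 10.28, 10.45 and 10.37 in the 3 libraries, from 2954 to 5404 reads. In CP70 the values were 0.09, -0.76 and 0.24, from 6, 2 and 4 reads. The A2780 and CP70 ranges lay at the opposite ends of all 18 libraries.
In PEA1 the MEST values were 2.93, 4.53 and 4.27, and in PEA2 they were 1.55, 1.73 and 1.96, from 33 reads or fewer in any library. In PEO1 they were 8.69, 8.78 and 8.93, and in PEO4 10.09, 10.12 and 10.06. The order of the line means was A2780, PEO4, PEO1, PEA1, PEA2, CP70, and no line's range overlapped that of its neighbour in this order. The high and low lines did not divide by platinum response, since MEST was lower in the resistant line of 2 pairs and higher in that of the other.

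**Figure D1:**
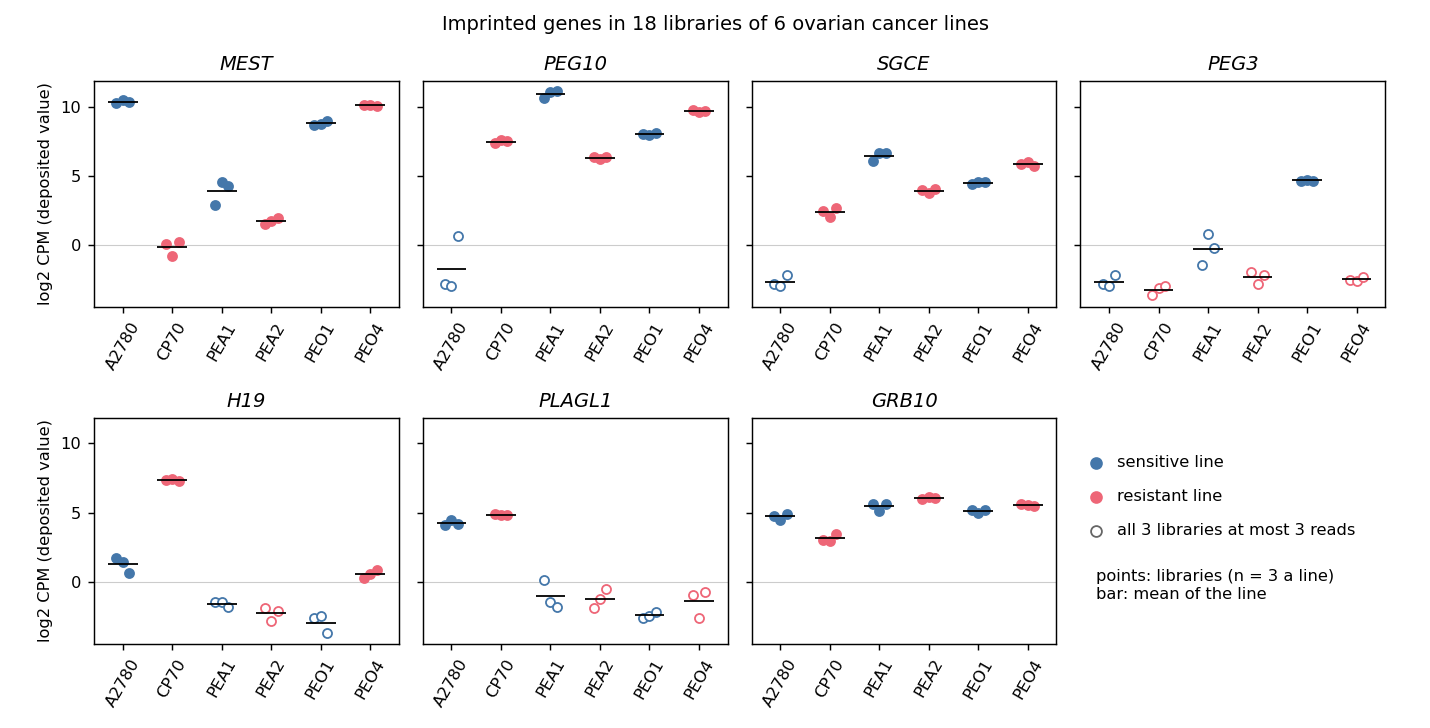
Each panel plots one gene's log2 CPM (vertical axis) in the 3 libraries of each line (horizontal axis, points), with a bar at the line mean, blue for sensitive and red for resistant lines, and open points where all 3 libraries of a line held at most 3 reads. MEST runs from 10.36 in A2780 to -0.14 in CP70, PEG10 and SGCE share their 3 highest lines (PEA1, PEO4, PEO1), and PEG3 is drawn with filled points in PEO1 alone.

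In CP70 against A2780, MEST had a log2 fold change of -10.5, the second largest fall among the 12853 genes. The ratio of mean CPM was 1578-fold lower in CP70. It rests on 12 reads in the 3 CP70 libraries together against 12804 in A2780, and with reads pooled over the libraries the ratio was 1556-fold, with an exact Poisson 95% interval of 890.7 to 3011 that covers counting error in CP70 only. In the same pair PEG10, SGCE and H19 were higher in CP70. By the thresholds of the study, an absolute log2 fold change above 2 and a false discovery rate (FDR) below 0.05, 3 of the 7 genes were called higher and 1 was called lower, where 5.66% and 3.4% of all genes were called in those directions. Nothing is read from this count, since the group was proposed from this contrast. Marker genes of epithelium and of fibroblasts also lay apart in this pair. The summed level of 6 epithelial markers was 2.24 to 3.13 CPM in A2780 and 89.3 to 95.8 CPM in CP70, carried by EPCAM, KRT8 and KRT18, with the other 3 at the floor in both lines. The 4 measured fibroblast markers summed to 509 to 719 CPM in A2780 and 855 to 993 CPM in CP70, mostly from COL3A1, and DCN and LUM were higher in CP70 by 3.37 and 3.86 on the log2 scale. Their part in the differences of MEST, PEG10, SGCE and H19 was not tested.

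PEG10 and SGCE lie head to head on chromosome 7 and are controlled by a shared imprinted region. PEG10 (ENSG00000242265; GRCh37 chr7:94285637-94299007, plus strand) is derived from a retrotransposon, encodes gag- and pol-like proteins and is needed for the placenta in mice. The 3 A2780 libraries held 0, 0 and 3 PEG10 reads. CP70 libraries stood at 7.38, 7.58 and 7.49 log2 CPM, which is a level at least 182-fold higher when A2780 is set to the floor of 3 reads per library. The fitted log2 difference of 9.2 is not a bound, since it was 7.7 with 2 reads added before the log and ranged from 8.58 to 10.38 over left-out libraries. The highest values were those of PEA1, at 10.66, 11.07 and 11.11.
In PEA2 the PEG10 values were 6.34, 6.21 and 6.40, below every library of the other lines except A2780. In PEO1 they were 8.05, 7.99 and 8.08, and in PEO4 9.75, 9.63 and 9.67. The line ranges did not overlap between any neighbours in the order PEA1, PEO4, PEO1, CP70, PEA2, A2780.

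SGCE (ENSG00000127990; GRCh37 chr7:94153516-94285884, minus strand) encodes epsilon-sarcoglycan, a membrane protein whose loss causes myoclonus-dystonia. No SGCE read was found in any A2780 library. CP70 held 33, 17 and 24 reads, for 2.46, 2.05 and 2.69 log2 CPM, at least 5.33-fold above the A2780 floor. The values were 6.05, 6.68 and 6.63 in PEA1, and 3.98, 3.77 and 4.02 in PEA2. They were 4.42, 4.55 and 4.56 in PEO1, and 5.87, 6.04 and 5.75 in PEO4. SGCE line means were ordered PEA1, PEO4, PEO1, PEA2, CP70, A2780, again without overlap between neighbours, so that PEG10 and SGCE shared their 3 highest lines and their lowest line.
Across the 6 line means the 2 genes had a Pearson r of 0.97, a description over lines whose libraries are shared. The distance between them was not constant. PEG10 minus SGCE in log2 CPM was 5.08 in CP70, 4.49 in PEA1, 3.80 in PEO4, 3.53 in PEO1 and 2.39 in PEA2. The annotated spans overlap by 248 bases on opposite strands. Whether the counting used strand is not given in the sources used here, so reads in that overlap cannot be assigned with certainty.

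H19 (ENSG00000130600; GRCh37 chr11:2016396-2025782, minus strand) is a long noncoding RNA that is abundant in fetal tissue and is read from the cluster that also holds IGF2. In A2780 the 3 libraries held 11, 10 and 3 reads, for 1.69, 1.44 and 0.65 log2 CPM. In CP70 the values were 7.34, 7.40 and 7.25, a mean CPM 69-fold above A2780. No H19 read was found in PEA1, PEA2 or PEO1, and PEO4 held 3, 4 and 4 reads. H19 was therefore well above the floor in a single line, and the A2780 and PEO4 ranges overlapped.

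PEG3 (ENSG00000198300; GRCh37 chr19:57321445-57352096, minus strand) encodes a large zinc finger protein with tumour suppressor activity in ovarian cancer. PEO1 held 75, 74 and 166 reads, for 4.62, 4.74 and 4.65 log2 CPM. PEO4, A2780, CP70 and PEA2 held none, and PEA1 held 0, 2 and 1. Its span overlaps that of ZIM2 on the same strand, so reads in shared exons cannot be told apart.

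PLAGL1 (ENSG00000118495; GRCh37 chr6:144261437-144385736, minus strand) is a zinc finger transcription factor that can arrest the cell cycle and induce apoptosis. It was measurable in A2780, at 4.10, 4.50 and 4.21 log2 CPM, and in CP70, at 4.90, 4.82 and 4.86. No library of the other 4 lines held more than 1 PLAGL1 read. PLAGL1 thus divided the A2780 family from the 4 serous lines, and the CP70 libraries lay above those of A2780 by 0.59 on the log2 scale.

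GRB10 (ENSG00000106070; GRCh37 chr7:50657760-50861159, minus strand) is an adaptor protein that damps signalling from the insulin and IGF1 receptors, and it was the only one of the 7 genes with more than 3 reads in every library. Its values were 4.77, 4.50 and 4.91 in A2780, and 3.02, 2.95 and 3.48 in CP70, a mean CPM 2.98-fold lower in CP70. They were 5.62, 5.14 and 5.64 in PEA1, and 5.96, 6.15 and 6.08 in PEA2. They were 5.22, 5.0 and 5.19 in PEO1, and 5.62, 5.58 and 5.45 in PEO4. PEA2 was highest, the ranges of PEO4, PEA1 and PEO1 overlapped with those of their neighbours, and A2780 and CP70 were lower without overlap. The spread of the GRB10 line means, from 3.15 to 6.06, was narrower than that of any other gene of the group.

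The group was selected on MEST in CP70 and not on the PEA or PEO pairs, and these pairs were tested. The genes were chosen with earlier results of these data known, so the tests are not free of that choice. The limma fit covered all 12853 genes and 18 libraries, and FDR values are adjusted over all genes. The words rose and fell are used for genes with an FDR below 0.05, and called adds the fold threshold. In bulk RNA, fewer cells that express a gene and less RNA per cell cannot be told apart.

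In PEA2 against PEA1, PEG10, SGCE and MEST were all lower. PEG10 fell by 4.63 on the log2 scale (SE 0.55, FDR = 4.09e-07), a mean CPM 25.1-fold lower in PEA2. SGCE fell by 2.53 (SE 0.26, FDR = 5.52e-08), or 5.93-fold. MEST fell by 2.16 (SE 0.29, FDR = 1.95e-06), or 5.17-fold, from PEA1 levels that were already far below those of PEO1 or A2780. For each of these genes the 3 PEA2 libraries lay below the 3 PEA1 libraries.
GRB10 moved the other way and rose by 0.60 (SE 0.17, FDR = 0.00469), or 1.5-fold, again without overlap. PEG3 passed the test at -2.0 (SE 0.50, FDR = 0.00169), but both lines were at the floor and no fold is given. H19 had no reads in either line (log2 difference -0.69, 95% interval -1.57 to 0.18, FDR = 0.156). PLAGL1 held at most 1 read per library (-0.17, interval -1.27 to 0.94, FDR = 0.799).

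In the PEA pair 3 of the 7 genes were called lower and 0 higher, where 6.15% of all genes were called lower and 7.93% higher. By FDR alone 4 fell and 1 rose, where 29.4% of all genes fell and 32.5% rose. The median log2 fold change of the 7 genes was -2, against 0.01 over all genes. That median is the value of PEG3, which was at the floor in both lines and is among the 4 that fell. H19 and PLAGL1 were at the floor in both lines too, so the median does not measure a shift of the group. The MEST call depended on PEA1: without its replicate 2 the log2 fold change was -1.85, and without its replicate 3 it was -1.99, both short of the fold threshold. MEST replicate 1 of PEA1 held 10 reads, where the others held 32 and 33.

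The PEA lines also differed in marker genes of epithelium and of other cell types. The summed level of the epithelial markers was 154 to 202 CPM in PEA1 and 3742 to 3915 CPM in PEA2. The summed level of the fibroblast markers was 366 to 447 CPM in PEA1, nearly all from COL1A1, and 3.17 to 4.12 CPM in PEA2. The leukocyte marker PTPRC, the only one of 4 measured, was at 0 in PEA1 and at 20.2 to 25.1 CPM in PEA2. The endothelial marker CDH5, the only one of 3 measured, was at 0 in PEA1 and at 25.3 to 36.1 CPM in PEA2. Their part in the falls of MEST, PEG10 and SGCE was not tested.

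In PEO4 against PEO1, the same 3 genes were higher in the resistant line. MEST rose by 1.29 (SE 0.29, FDR = 0.00114), a mean CPM 2.44-fold higher in PEO4. PEG10 rose by 1.64 (SE 0.55, FDR = 0.0206), or 3.12-fold, and SGCE by 1.38 (SE 0.26, FDR = 0.000223), or 2.61-fold. In each case the 3 PEO4 libraries lay above the 3 PEO1 libraries, and none of the 3 changes reached the fold threshold.
No PEG3 read was found in PEO4. PEG3 fell by 7.14 (SE 0.50, FDR = 8.6e-10), and its mean CPM in PEO1 was at least 23.3-fold above the PEO4 floor. Outside PEO1 no library held more than 2 PEG3 reads, so its place in the table may rest on PEO1. A fall was then the only call open to it in this pair. H19 rose by 3.52 (SE 0.42, FDR = 1.11e-06), from 0 reads in every PEO1 library to 3 or 4 in PEO4, which bounds the ratio of mean CPM at no less than 1.59-fold. GRB10 was higher by 0.41 (95% interval 0.06 to 0.77, FDR = 0.0573) and PLAGL1 by 1.0 (interval -0.11 to 2.10, FDR = 0.142), and neither passed the test.

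In the PEO pair 1 of the 7 genes was called higher and 1 lower, where 2.86% of all genes were called higher and 3.37% lower. By FDR alone 4 rose and 1 fell, where 19.6% of all genes rose and 21.9% fell. The median log2 fold change of the 7 genes was 1.29, against -0.02 over all genes. The H19 call rests on 11 reads in all and was lost when 2 reads in place of 0.5 were added before the log (1.97) or after quantile normalization (1.64). The summed fibroblast markers were at 2.94 to 7.08 CPM in PEO1 and at 67.7 to 76.5 CPM in PEO4. COL3A1 carried this difference, with no reads in PEO1 and a mean of 64.4 CPM in PEO4, while COL1A1 (0.44, FDR = 0.377), DCN (-0.06, FDR = 0.947) and LUM (0.47, FDR = 0.571) did not pass the test. Of the epithelial markers, KRT7 fell by 2.44 (FDR = 0.000291) and EPCAM rose by 0.46 (FDR = 0.0402). KRT8, KRT18, KRT19 and CDH1 did not pass the test. The serous marker WT1 rose by 1.44 (FDR = 0.00243), while PAX8, MUC16 and MSLN did not pass. The part of these markers in the results of this pair was not tested.

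**Figure D2:**
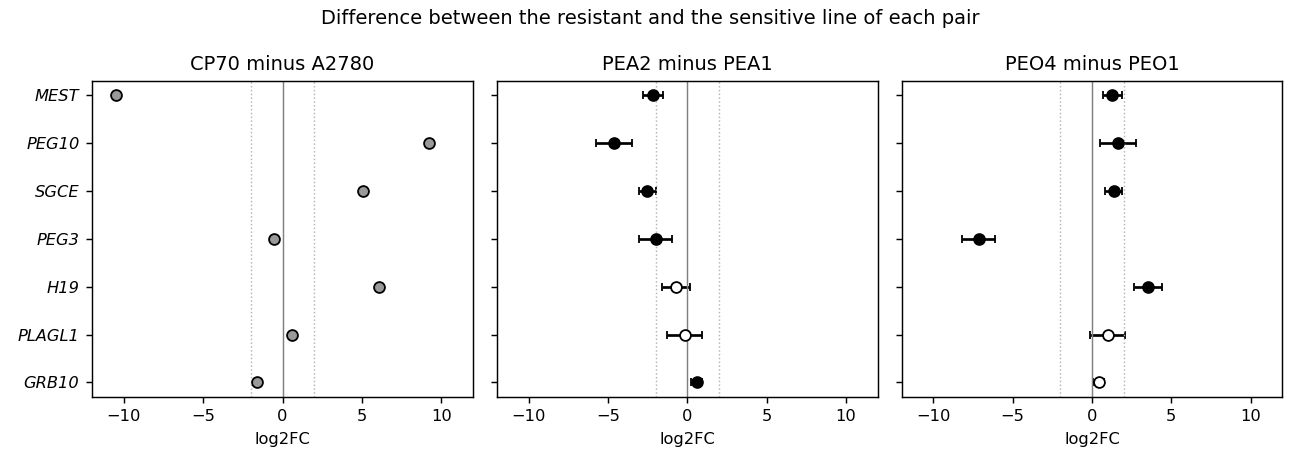
Points give the log2 fold change of each gene, resistant minus sensitive line (horizontal axis), in the 3 pairs (panels), bars are 95% intervals from the fit across all genes, and dotted lines mark a log2 fold change of 2 in either direction. Filled points have an FDR below 0.05, open points do not, and the untested A2780 pair is in grey without bars. MEST, PEG10 and SGCE lie left of 0 in the PEA pair (-2.16, -4.63, -2.53) and right of 0 in the PEO pair (1.29, 1.64, 1.38), while in the A2780 pair MEST is at -10.5 and PEG10 at 9.2.

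The difference between the PEA and PEO changes was tested in the same fit, and these pairs share no library. For MEST the PEA change minus the PEO change was -3.45 (SE 0.41, FDR = 5.2e-07). For PEG10 it was -6.27 (FDR = 9.62e-07) and for SGCE -3.91 (FDR = 2.25e-08). The 3 genes thus changed in opposite directions in these pairs, with a difference larger than the spread between libraries. PEG3 (5.14, FDR = 3.56e-06) and H19 (-4.21, FDR = 4.95e-06) also differed, but both were at the floor in the PEA pair. GRB10 (0.18, FDR = 0.526) and PLAGL1 (-1.17, FDR = 0.189) did not pass. In all, 5 of 7 genes passed, where 58.7% of all genes did, and the count alone does not set the group apart.

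MEST and PEG10 went in opposite directions in the A2780 pair and in the same direction in each serous pair. Along with the A2780 values given above, this left no gene of the group that was higher, or lower, by more than 2 on the log2 scale in the resistant line of all 3 pairs. PEG10 and SGCE were higher in CP70 and PEO4 and lower in PEA2. The absence of PEG3 reads in PEO4, PEA2 and CP70 had its counterpart in A2780, which is sensitive and also held none.

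Genes on either side of MEST are read from the same chromosomal region. Values are given for COPG2, CEP41 and CPA4. COPG2 (a coatomer subunit, whose span overlaps the end of MEST by 228 bases on the opposite strand) had a mean log2 CPM of 4.63 in A2780 and 4.42 in CP70, a change of -0.20 beside the -10.5 of MEST. In PEA2 COPG2 rose by 0.85 (SE 0.27, FDR = 0.0108), where MEST fell. In PEO4 its change was 0.46 (FDR = 0.191).
CEP41, a centrosomal protein gene 43738 bases away, changed by -1.55 in CP70, rose by 0.49 in PEA2 (FDR = 0.0338) and had a value of 0.16 in PEO4 (FDR = 0.554). The carboxypeptidase gene CPA4 lies 161992 bases away. CPA4 rose by 2.97 in PEO4 (FDR = 1.48e-05), from 7.19, 7.06 and 6.96 log2 CPM in PEO1 to 10.16, 9.99 and 9.98. In CP70 it was at the floor, and in the PEA pair it held at most 4 reads (1.42, FDR = 0.00816).

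Around PEG10 and SGCE, PPP1R9A (a neuronal actin-binding protein) also differed between A2780 and CP70. It held 1, 0 and 2 reads in A2780 and stood at 5.18, 5.04 and 5.48 log2 CPM in CP70. In PEA2 it fell by 1.11 (FDR = 0.034), and in PEO4 its change was -0.66 (FDR = 0.242). CASD1, a sialic acid acetyltransferase gene whose span overlaps that of SGCE on the opposite strand, stood at 3.43 to 3.79 log2 CPM in A2780 and 4.37 to 4.82 in CP70, higher in CP70 without overlap as SGCE was. COL1A2 (5.20), TFPI2 (2.49) and PON2 (1.37), further measured genes of this region, also had positive log2 differences in CP70, the first and second of them from 2 reads or fewer in A2780. BET1, which lies between TFPI2 and COL1A2, went the other way (-0.55). The CASD1 change was -0.07 in PEA2 (FDR = 0.788), where SGCE fell by 2.53, and it rose by 0.55 in PEO4 (FDR = 0.0346).

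**Figure D3:**
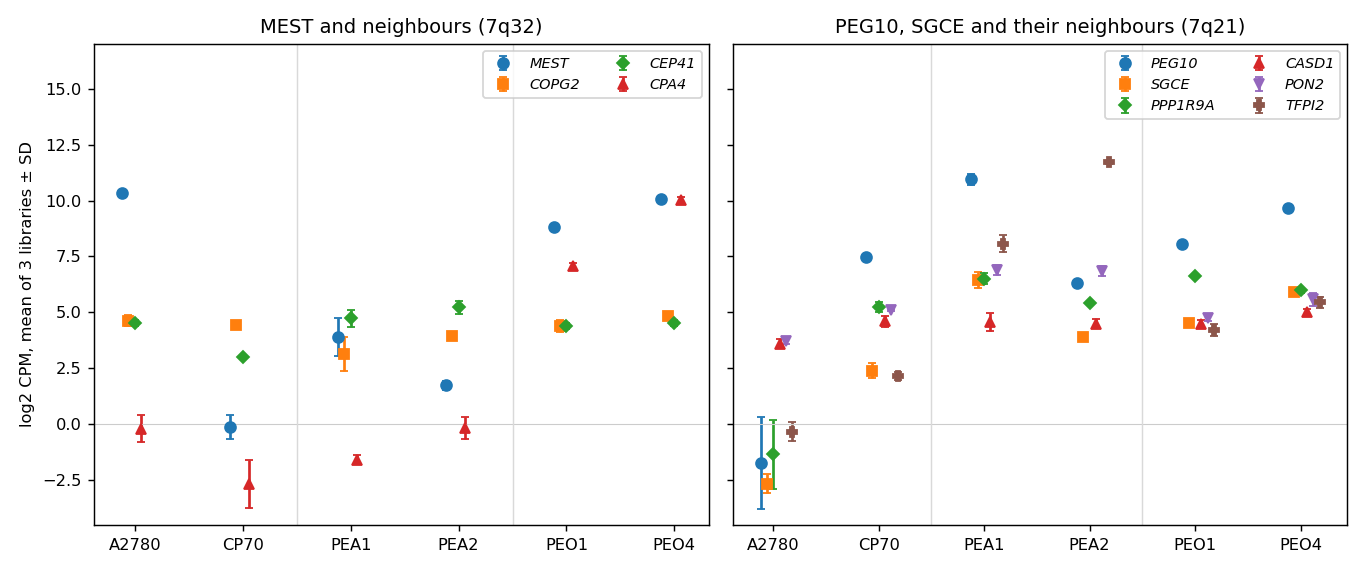
Points give the mean log2 CPM of 3 libraries ± SD (vertical axis) in each line (horizontal axis), for MEST and the neighbours COPG2, CEP41 and CPA4 (left panel) and for PEG10, SGCE and 4 measured genes around them (right panel). MEST drops from 10.36 in A2780 to -0.14 in CP70 where COPG2 goes from 4.63 to 4.42, and PEG10, SGCE and PPP1R9A are all at the floor in A2780.

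Of 64 other genes listed as imprinted in human tissue, 30 were in the table, and for several of them imprinting is limited to certain tissues. In the PEA pair 3 were called higher and 1 lower, beside 7.93% and 6.15% of all genes. By FDR alone 10 rose, 9 fell and 11 did not pass, beside 32.5% and 29.4% of all genes that rose and fell, so the FDR counts lie near the share of all genes. The largest changes were those of ANO1 (7.67, a calcium-activated chloride channel), NDN (-4.00, the growth suppressor necdin) and TFPI2 (3.63, a serine protease inhibitor). ANO1 held 0, 0 and 1 reads in PEA1 and 197, 323 and 211 in PEA2, at least 48.8-fold above the floor. Outside PEA2 no library held more than 5 ANO1 reads, so its place in the table may rest on PEA2. NDN stood at 4.81, 4.81 and 4.54 log2 CPM in PEA1 and at -0.32, 1.45 and 1.04 in PEA2.

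In the PEO pair 2 of the 30 were called higher and 4 lower, beside 2.86% and 3.37% of all genes. By FDR alone 9 rose, 8 fell and 13 did not pass, beside 19.6% and 21.9% of all genes that rose and fell. The largest falls were those of SLC22A3 (-6.38, an organic cation transporter), DIRAS3 (-5.74, a Ras-related growth suppressor known for its loss in ovarian cancer) and NDN (-3.87). SLC22A3 held 818, 712 and 1738 reads in PEO1 and 5, 12 and 9 in PEO4. DIRAS3 held 631, 503 and 1165 reads in PEO1 and 9, 17 and 5 in PEO4, and in the other 4 lines it held at most 5. Together with PEG3, SLC22A3 and DIRAS3 were high in PEO1 and near or at the floor in PEO4. Their place in the table may rest on PEO1 as that of PEG3 may. NDN was called lower in the resistant line of both serous pairs, where A2780 (4.74 to 5.06) and CP70 (4.65 to 4.86) overlapped.
In the A2780 pair, as a description, 5 of the 30 were past both thresholds higher in CP70 and 3 lower, beside 5.66% and 3.4% of all genes. The largest differences were those of ATP10A (7.35), PPP1R9A (6.58) and FAM50B (-6.51), each with one line at the floor, so that the levels were at least 26.6-fold and 38.4-fold higher and at least 15.1-fold lower in CP70. ATP10A, a phospholipid flippase gene, had no read in A2780 and 4.70, 4.44 and 4.96 log2 CPM in CP70. The median log2 fold change of the 30 genes was -0.02, 0.08 and -0.01 in the A2780, PEA and PEO pairs, against -0.02, 0.01 and -0.02 over all genes.

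**Figure D4:**
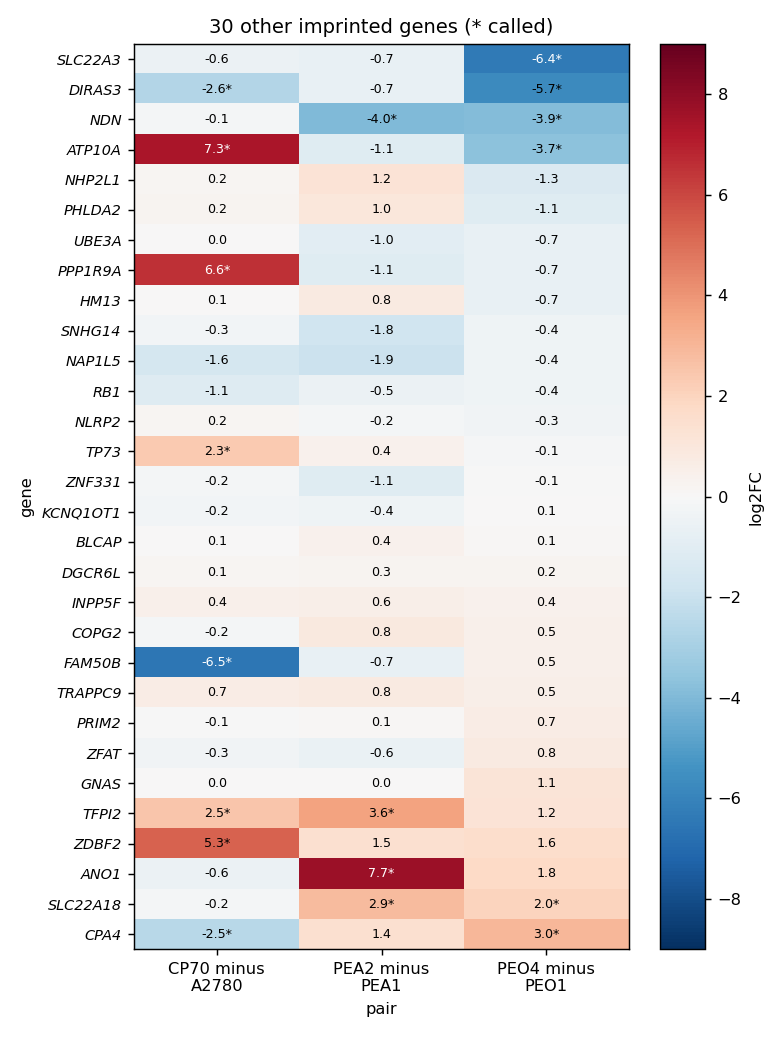
Heat map of log2 fold change, resistant minus sensitive line (colour scale and printed values), for the 30 other imprinted genes (rows) in the 3 pairs (columns), where a star marks a called gene. NDN is lower in the PEA (-4.00) and PEO (-3.87) pairs, and SLC22A3 and DIRAS3 are lower in the PEO pair (-6.38 and -5.74).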

How the data were processed

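Libraries were made with a directional kit from RNA depleted of ribosomal RNA. Per the submitters' processing notes and the study's methods, the authors used Bowtie2, featureCounts and limma with hg19. The deposited values are log2 CPM (counts per 1000000 reads) on a scaled library size with 0.5 reads added. Whole reads were recovered for all values and gave the depths quoted. Whether counting used strand is not given in the sources used here.

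The log2 values were fitted in limma (3.58.1, R 4.3.3) with 6 line means and an intensity trend, as a single model over 12853 genes, with Benjamini-Hochberg adjustment. A gene was called at an absolute log2 fold change above 2 and FDR below 0.05. Log2 fold changes understate low genes. The 7 genes, the measured neighbours of MEST (except for a result that is not reported here) and, for the other lists, the 3 called genes with the largest change per pair were named, with the 5 genes most correlated with MEST over line means. The genes and lists were chosen with earlier results of these data known. Replicate libraries differed beyond sampling noise (chi-square per degree of freedom 1.74 to 13.5, the highest between PEO1 replicates 1 and 3). This does not show that they were separate cultures. All libraries were kept. Alternatives were the reads added, a mean filter, quantile normalization, the thresholds, leaving out each library, a replicate block and, chosen after seeing the data, voom weights. The fit was tested on simulated data.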

Additional observations from a re-analysis of the deposited data

Results flagged for a closer look

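The changes of 5 genes differed between the PEA and PEO pairs in the test of the difference itself, limma's contrast adjusted over all genes, where 58.7% of all genes passed. The log2 change in PEA2 minus that in PEO4 was -3.45 for MEST, -6.27 for PEG10 and -3.91 for SGCE, which fell in PEA2 and rose in PEO4. It was 5.14 for PEG3 and -4.21 for H19, and both of these were at 3 reads or fewer in every PEA library.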

How the results depend on the processing

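Of the 7 genes, the number called in the PEA pair (3) became 5 by FDR alone. The number called in the PEO pair (2) became 1 with genes of mean log2 CPM above 0 only, 1 after quantile normalization, 1 with 2 reads added, 5 at a log2 fold threshold of 1 and 5 by FDR alone. For the other imprinted genes, the count in the A2780 pair (8) became 5 with 2 reads added, that in the PEA pair (4) became 12 at a threshold of 1 and 19 by FDR alone, and that in the PEO pair (6) became 11 and 17. The cause was not tested, beyond the looser thresholds themselves. Leaving out single libraries gave 2 to 4 and 2 to 2 calls among the 7 genes in the PEA and PEO pairs, and 5 to 6 for the difference between these pairs. Among the other imprinted genes it gave 8 to 8, 4 to 5 and 5 to 7 calls in the A2780, PEA and PEO pairs. PLAGL1 in the PEA pair turned positive without PEA1 replicate 1 (0.42) or PEA2 replicate 1 (0.18), in a range of -0.54 to 0.42 over left-out libraries, at 1 read or fewer per library.
Single-gene values gave 384 alternatives labelled as the same, 6 that moved, 2 reversed, 6 newly past the threshold and 4 no longer past it. In the PEA and PEO pairs and their difference, the same means the same direction and call. In the A2780 pair it means that the log2 fold change shifted by less than the spread between libraries. With a replicate block the 7 genes gave 3 and 2 calls in the PEA and PEO pairs as before. Same-numbered replicates of a pair correlated at -0.04 to 0.05 in their deviations, so the numbers did not pair the libraries, and for the other imprinted genes the block left 8, 4 and 6 calls. It was run for these counts and the 7 genes only. Quantile normalization moved the median of all genes in the PEA pair to -0.1. Depth limits PEG3, H19, PLAGL1 and MEST in CP70 and PEA2, which rest on few reads.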

Other observations

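Genes whose line means ran most like those of MEST were UACA (Pearson r 0.989), L3MBTL4 (0.970), EPHX2 (0.968), RIC3 (0.962) and MEIS1 (0.961), over 6 lines and among 5967 genes whose line means span more than 2 on the log2 scale. Of these 5967 genes, 18 had an r above 0.9. The HOX cofactor gene MEIS1 had line means of 6.40 in A2780, -0.03 in CP70, 4.37 in PEA1, 2.21 in PEA2, 6.20 in PEO1 and 7.99 in PEO4. UACA had line means of 9.17 in A2780 and 6.09 in CP70, where MEST was at -0.14. EPHX2 in CP70 (-3.2), RIC3 in PEA1 and PEA2 (-1.58 and -2.28) and L3MBTL4 in PEA2 (-2.28) stood at the values of genes without reads. The r values are descriptions over 6 points that share libraries with MEST and include the A2780 and CP70 values that chose the group.

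Among 11 measured factors that keep or erase imprints, of 14 listed, no gene was called in the PEO pair, where 2.86% of all genes were called higher and 3.37% lower. By FDR alone 2 fell in that pair, UHRF1 (-0.90, FDR = 9.56e-05) and TET3 (-0.57, FDR = 0.00607), beside 21.9% of all genes. TET2 rose (0.47, FDR = 0.00871), 1 of the 11, beside 19.6% of all genes. In the PEA pair TET1, a 5-methylcytosine dioxygenase, was called lower (-2.19, limma FDR = 5.41e-08), where 6.15% of all genes were. In this pair 5 of the 11 fell by FDR alone, beside 29.4% of all genes. The imprint-protecting zinc finger gene ZNF445 was among the 5 (-1.24, FDR = 3.25e-06). The maintenance methyltransferase DNMT1 had values of -0.08 (FDR = 0.46) in the PEA pair and -0.09 (FDR = 0.455) in the PEO pair.

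Of 10 measured receptors and RNA-binding partners of IGF2, of 11 listed, LIN28B, a repressor of let-7 microRNAs, was called higher in PEA2 (4.84, FDR = 3.4e-08), where 7.93% of all genes were. LIN28B held no reads in PEA1 and 16, 33 and 22 in PEA2, at least 4.65-fold above the floor, and none was called in the PEO pair. IGF1R, the receptor for IGF1 and IGF2, fell by 1.30 in PEA2 (FDR = 2.45e-07) and rose by 1.29 in PEO4 (FDR = 7.41e-07). The insulin receptor substrate genes IRS1 and IRS2 were lower in CP70, with log2 differences of -4.87 and -2.84, and IRS2 held at most 1 read in CP70 and 1, 4 and 6 in A2780. Of 59 genes listed around the imprinted loci, 25 were measured, and 4 were called higher and 0 lower in PEA2, beside 7.93% and 6.15% of all genes, and 2 higher and 1 lower in PEO4, beside 2.86% and 3.37%. The largest in PEA2 was COBL (7.12, FDR = 1.38e-11), a neighbour of GRB10 at the floor in PEA1 and at least 33.2-fold above it in PEA2. In PEO4 COBL fell by 2.01 (FDR = 0.000514) and COL1A2, a collagen gene near PEG10, rose by 4.30 (FDR = 1.94e-06), from 2 reads or fewer in PEO1 to at least 10.8-fold above that floor. Of the 30 other imprinted genes above, 7 are also listed around MEST or the other loci, so the counts of these lists share genes. TFPI2 and SLC22A18, called higher in PEA2, are counted in both.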
